A study of Homo sapiens with 6 samples.

Results

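The genes described here encode the members of the core AML1-ETO transcription factor complex: the fusion partners RUNX1 and RUNX1T1, their cofactor CBFB, the E proteins TCF3 and TCF12, and LYL1, LMO2 and LDB1. They were taken by gene symbol from 3 deposited tables of gene expression, in which each symbol matched 1 row, so that 8 of 62016 genes are members. RNA had been sequenced from Kasumi-1 cells, a human myeloblast line from an acute myeloid leukemia with the AML1-ETO fusion. Cells were collected 4 days after infection with viruses for JMJD1C shRNA63 (2 libraries), JMJD1C shRNA95 (2 libraries) or a control shRNA (2 libraries), all in the pLKO vector. JMJD1C belongs to the KDM3 family of JmjC-domain proteins, and the study asked what its loss does to gene expression. Another table of the authors set cells with an AML1-ETO shRNA against control cells, 1 library each, both from another published series. The labels do not name the cell line of those libraries. All groups of the JMJD1C tables were the same line, so the control cells carried the fusion gene too. The labels do not say whether paired libraries were grown separately, so the authors' p-values may measure technical spread alone. In RNA from whole cultures, fewer cells of a type and less RNA per cell cannot be told apart.

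AML1-ETO joins the DNA-binding Runt domain of the blood transcription factor RUNX1 to nearly all of RUNX1T1, also called ETO, a corepressor-binding protein. CBFB is the non-DNA-binding partner that stabilises the Runt domain on DNA. TCF3 (E2A) and TCF12 (HEB) are E proteins, basic helix-loop-helix factors that bind E-box sequences as homodimers or as partners of tissue-specific factors such as LYL1. LMO2 is a LIM-only adaptor that binds LYL1 or its relative TAL1, and LDB1 is the scaffold that dimerises and holds LMO2. In t(8;21) leukemia cells these proteins are known to be bound together on DNA with the fusion.

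JMJD1C mRNA, the target of both hairpins, stood under its control in both comparisons and was called lower in 1 of the 2. It stood at 13.7 FPKM with shRNA63 against 30.4 FPKM in the control, and the authors' deposited table gave a log2 fold change of -1.15 (error 0.30, q = 0.00214). FPKM, a fragment count per transcript length and sequencing depth, was given by the authors as 1 value per group. The error of a log2 fold change is its size divided by the authors' test statistic, q is their adjusted p, and a gene counts as called at q under 0.05. With shRNA95, by the label, JMJD1C stood at 25.1 FPKM against 29.4 FPKM in the control, which the authors' deposited table did not call (log2 fold change -0.23, error 0.30, q = 0.938). Directions given for shRNA95 therefore rest on the label. Myeloblast markers were present in all groups of the JMJD1C tables, with KIT at 134 to 245 FPKM, CD34 at 103 to 249 FPKM, CD33 at 19.2 to 35.4 FPKM and the granule protease gene ELANE at 1109 to 3744 FPKM. MPO was among 5 genes too deeply covered for the authors' program and is listed at 0. These markers moved with the hairpins. In the shRNA63 libraries ELANE, at 3744 FPKM against 1143 FPKM in the control, and CD33 were called higher (1.71 and 0.83 on the log2 scale in the authors' deposited table), and KIT was called lower (-0.87). With shRNA95 ELANE, CD33 and KIT were not called, at 0.02, 0.23 and -0.52 in the authors' deposited table. CD34 was called higher with shRNA95 at 0.77 and lower with AML1-ETO shRNA at -2.15 in the authors' deposited tables, and stood at -0.55 with shRNA63 without a call (q = 0.0743). Between the hairpins, shRNA63 minus shRNA95, ELANE differed by 1.69 (error 0.37, interval 0.97 to 2.41) and CD34 by -1.32 (error 0.39, interval -2.08 to -0.55). The interval included 0 for KIT, at -0.36 (interval -1.09 to 0.38), and for CD33, at 0.61 (interval -0.37 to 1.58). In the test across all genes ELANE passed, and CD34, KIT and CD33 did not. Of the markers of other blood lineages, those given here were low, with CD3E under 1 FPKM and ITGA2B at 0.91 to 2.68 FPKM, both called lower with shRNA63 in the authors' deposited table. The depth of each library is unknown. If the most common ratio among untested genes marks equal reads, the depth of the shRNA groups was 0.79 (shRNA63) and 0.71 (shRNA95) times that of the control.

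The proteins of the complex bind E-boxes (CANNTG) and the RUNX motif (TGTGGT, or ACCACA on the other strand), so the promoters of the members were searched for both. The RefSeq promoter table (GRCh38.p14) held 9 starts for 5 of the 8 members, of which 5 starts belong to TCF12. It held none under the symbols CBFB, LMO2 and RUNX1T1. In the 250 bases before each start, an E-box was found at 2 of the 9, both of TCF12, whereas 61.8% of all 35116 promoters in the table hold one. The RUNX motif was found at 0 of the 9, and 11.0% of all promoters hold it. These matches describe letters in a window and no binding was measured. The TCF12 starts with an E-box and the listed RUNX1 start are shown here because they hold a match to CANNTG or belong to the gene of the DNA-binding part of the fusion. Capitals mark the E-box, and each sequence runs 5′ to 3′ toward the start, on the plus strand for TCF12 and the minus strand for RUNX1.
TCF12 upstream start, chr15:56917840-56918089: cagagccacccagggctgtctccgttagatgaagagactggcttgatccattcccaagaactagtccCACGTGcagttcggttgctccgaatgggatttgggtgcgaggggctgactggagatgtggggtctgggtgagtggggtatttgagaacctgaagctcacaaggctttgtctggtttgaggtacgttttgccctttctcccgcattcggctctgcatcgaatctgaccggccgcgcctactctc
TCF12 downstream start, chr15:57219180-57219429: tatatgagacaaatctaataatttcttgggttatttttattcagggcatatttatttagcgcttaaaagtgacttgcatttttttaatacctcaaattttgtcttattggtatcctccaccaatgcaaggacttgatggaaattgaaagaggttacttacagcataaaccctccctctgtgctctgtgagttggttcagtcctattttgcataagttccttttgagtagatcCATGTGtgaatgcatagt
RUNX1 start, chr21:34888700-34888949: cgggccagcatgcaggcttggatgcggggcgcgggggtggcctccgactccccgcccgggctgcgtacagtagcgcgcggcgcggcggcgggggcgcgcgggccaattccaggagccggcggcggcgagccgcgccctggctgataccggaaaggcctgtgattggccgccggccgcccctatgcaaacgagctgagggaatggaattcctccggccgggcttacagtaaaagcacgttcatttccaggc
The upstream TCF12 start holds CACGTG and the downstream one CATGTG. The base composition of the windows differed, with G and C making up 56% and 34.8% of the TCF12 windows and 71.2% of the RUNX1 window. The deposited values do not separate transcripts from these starts.

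The deposited coordinates are those of hg19 and give the span of all genes that overlap at a locus. RUNX1 (ENSG00000159216) lies on chromosome 21 within 36160098 to 37357047, a span it shares with 8 other listed genes, of which FKSG68 had the highest level at 0.32 FPKM. RUNX1T1 (ENSG00000079102) lies on chromosome 8 within 92967203 to 93115514, with 1 other gene, GS1-5L10.1, at up to 4.27 FPKM. CBFB (ENSG00000067955) spans 67063019 to 67134961 on chromosome 16, LYL1 (ENSG00000104903) 13209847 to 13213975 on chromosome 19, and LDB1 (ENSG00000198728) 103867317 to 103880210 on chromosome 10, each alone at its locus. TCF3 (ENSG00000071564) lies on chromosome 19 within 1609291 to 1652604, where a U6 row reached 6.17 FPKM. TCF12 (ENSG00000140262) lies on chromosome 15 within 57210821 to 57591479 and LMO2 (ENSG00000135363) on chromosome 11 within 33880122 to 33913836. Their loci hold 3 and 1 other genes, all at 0.55 FPKM or less. These levels of other genes are the higher of the shRNA and control values in the shRNA63 table. In that table no member shared its locus with a gene of comparable level. The values are per gene, so reads of the fusion transcript and of the unrearranged RUNX1 and RUNX1T1 alleles are not separated. The labels do not say whether counting used the strand.

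All 8 members were expressed well above most genes, and the order of their levels was nearly the same in every group. TCF3 had the highest level and LDB1 the lowest in 4 of 4 group columns of the JMJD1C tables. With shRNA63 the levels ran from 204 FPKM for TCF3 through CBFB, RUNX1T1, RUNX1, LYL1, TCF12 and LMO2 to 39.3 FPKM for LDB1. In the libraries labelled shRNA95 they ran from 191 FPKM for TCF3 through CBFB, LYL1, RUNX1, RUNX1T1, TCF12 and LMO2 to 37.7 FPKM for LDB1. In the controls the order was TCF3, CBFB, LYL1, RUNX1T1, RUNX1, TCF12, LMO2 and LDB1. In the control column of the shRNA63 table TCF3 lay above 96.7% of tested genes and LDB1 above 80.7%.

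Many neighbours in that order could not be told apart. An error for a single level was taken as the error of the fold change divided by the square root of 2, which gives each group an equal part of it. On the log2 scale TCF3 was above CBFB by 0.68 with shRNA63 (error 0.32), by 0.85 with shRNA95 (error 0.33) and by 0.83 in both control columns. That gap exceeded 1.96 errors in all 4 columns. LMO2 was above LDB1 by 1.04 with shRNA63 (error 0.28) and by 0.71 with shRNA95 (error 0.29), beyond 1.96 errors, and by 0.53 in both control columns, which is within them. The other neighbours, from CBFB down to LMO2, were within 1.96 errors of each other in every column. Relative to one another, RUNX1T1 stood at 1.03 times the FPKM of RUNX1 with shRNA63 and 0.88 times with shRNA95, against 1.04 times in both control columns. TCF3 stood at 2.30 and 2.65 times TCF12 with shRNA63 and shRNA95, against 2.35 times in the controls. The 8 members summed to 892 FPKM with shRNA63 against 849 FPKM in its control column, and to 717 FPKM with shRNA95 against 823 FPKM in its control column.

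**Figure D1:**
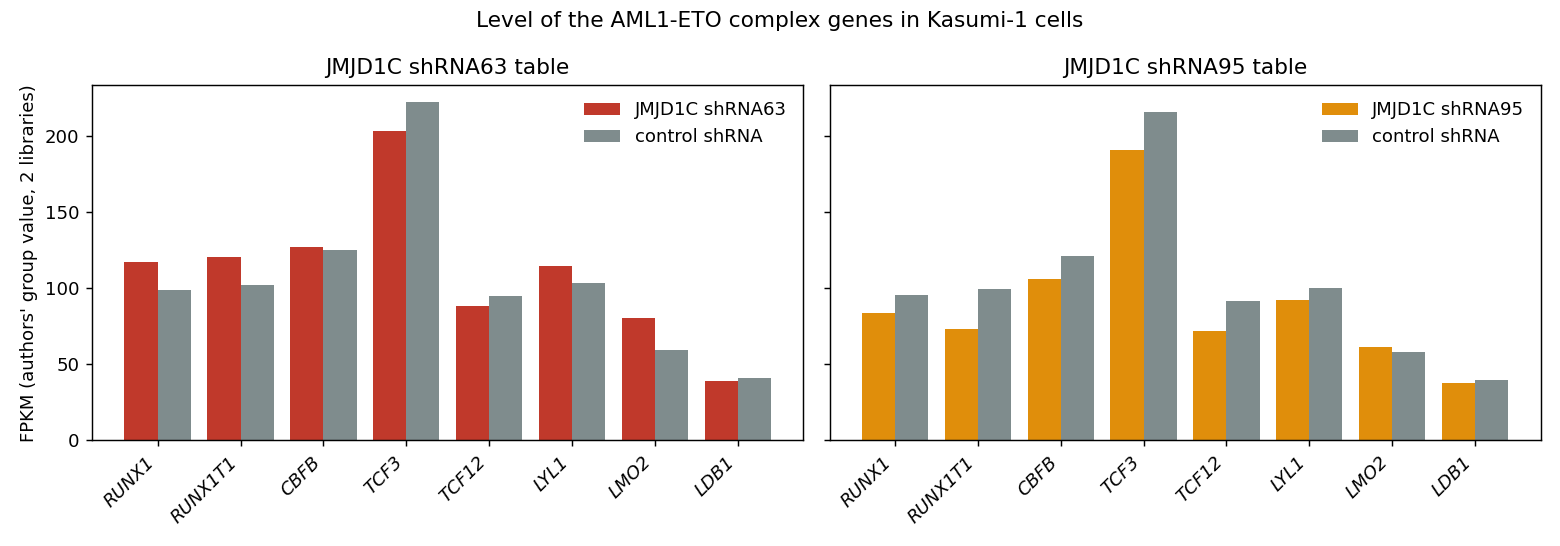
Bars show the authors' FPKM per group for the 8 members, with the shRNA group left of the control shRNA group, in the shRNA63 table (left panel) and the shRNA95 table (right panel). TCF3 is highest and LDB1 lowest in all 4 columns; no error bars are drawn because each bar is 1 value combined by the authors from 2 libraries.

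The fusion partners and their cofactor were not called with either hairpin. RUNX1 stood at 118 FPKM with shRNA63 against 98.8 FPKM in its control, and at 83.6 FPKM with shRNA95 against 95.8 FPKM in its control. Its log2 fold changes in the authors' deposited tables were 0.25 with shRNA63 (error 0.47, 95% interval -0.66 to 1.16, q = 0.907) and -0.20 with shRNA95 (error 0.51, interval -1.19 to 0.80, q = 0.998). The 2 hairpins thus lay on opposite sides of the control, each within its error. RUNX1T1 stood at 121 FPKM with shRNA63 against 103 FPKM in its control, and at 73.3 FPKM with shRNA95 against 99.4 FPKM in its control. The authors' deposited tables gave it 0.24 with shRNA63 (error 0.48, interval -0.71 to 1.18, q = 0.993) and -0.44 with shRNA95 (error 0.48, interval -1.38 to 0.50, q = 0.754) on the log2 scale. The second of these was the lowest value of any member with a JMJD1C hairpin, at 73.8% of control. CBFB stood at 127 FPKM with shRNA63 against 125 FPKM in its control, and at 106 FPKM with shRNA95 against 121 FPKM in its control. Its log2 fold changes in the authors' deposited tables were 0.02 (error 0.36) and -0.20 (error 0.37), in that order of hairpins.

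The E protein genes stood under their controls with both hairpins, also without a call. TCF3 had 204 FPKM with shRNA63 against 223 FPKM in its control, and 191 FPKM with shRNA95 against 216 FPKM in its control. The authors' deposited tables gave log2 fold changes of -0.13 with shRNA63 (error 0.27, interval -0.67 to 0.41) and -0.18 with shRNA95 (error 0.28, interval -0.72 to 0.37). TCF12 had 88.7 FPKM with shRNA63 against 94.9 FPKM in its control, and 71.9 FPKM with shRNA95 against 92.0 FPKM in its control. Its log2 fold changes in the authors' deposited tables were -0.10 (error 0.80) and -0.36 (error 0.78) in that order. The errors of TCF12 were the widest of all members in the JMJD1C tables, and a change of 2-fold in either direction lies inside its intervals.

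The genes of the LYL1, LMO2 and LDB1 module included the member nearest to a call. LMO2 stood at 80.7 FPKM with shRNA63 against 59.8 FPKM in its control, or 135.0% of control. The authors' deposited table gave it 0.43 on the log2 scale (error 0.23, interval -0.02 to 0.89) with an unadjusted p of 0.0170 and q = 0.192, so it was not called. In the libraries labelled shRNA95 LMO2 stood at 61.5 FPKM against 58.0 FPKM in the control, and the authors' deposited table gave 0.09 (error 0.23, q = 0.998) on the log2 scale. LYL1 stood at 115 FPKM with shRNA63 against 104 FPKM in its control, and at 92.1 FPKM with shRNA95 against 100.4 FPKM in its control. The authors' deposited tables gave it 0.15 with shRNA63 (error 0.25, interval -0.34 to 0.63) and -0.12 with shRNA95 (error 0.25, interval -0.62 to 0.38) on the log2 scale. LDB1 stood at 39.3 FPKM with shRNA63 against 41.3 FPKM in its control, and at 37.7 FPKM with shRNA95 against 40.0 FPKM in its control. With log2 fold changes of -0.07 (error 0.33) and -0.09 (error 0.33) in the authors' deposited tables, it was the member nearest to its control over both hairpins.

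**Figure D2:**
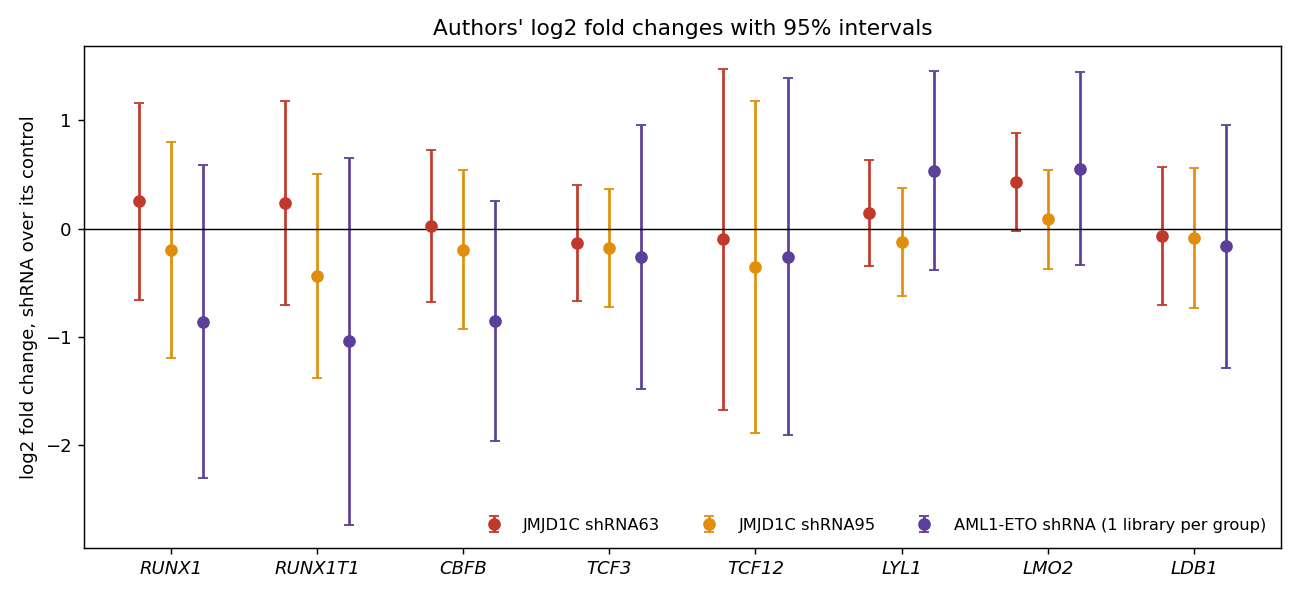
Points are the authors' log2 fold changes (shRNA over its control, y axis) of the 8 members with JMJD1C shRNA63, JMJD1C shRNA95 and, from 1 library per group, AML1-ETO shRNA; bars are 95% intervals from the authors' test statistic. All intervals include 0, and those of TCF12 are the widest of the JMJD1C comparisons.

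Counted together, 0 of 8 members were called with shRNA63 at q under 0.05 in the authors' deposited table, where 5.12% of all 18271 tested genes were called. With shRNA95 the count was 0 of 8, where 4.4% of 18006 tested genes were called. At this background a list of 8 genes with no call is near what all genes show. At an unadjusted p under 0.05 the members numbered 1 with shRNA63 (LMO2), against 13.4% of all tested genes, and 0 with shRNA95, against 12.3%. The median log2 fold change of the members was 0.08 with shRNA63 and -0.19 with shRNA95, against 0.02 and 0.04 over all tested genes. With shRNA63 5 members were above 0, where 52.1% of all tested genes were. With shRNA95 7 were below 0, where 46.3% of all tested genes were. The comparisons share their control libraries, so these counts are not independent of each other.

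The precision of the tables sets what could have been called. Among genes at 20 to 100 FPKM the smallest log2 change called was 0.53 in size with shRNA63 and 0.56 with shRNA95, and among genes at 100 to 500 FPKM it was 0.53 and 0.55. All log2 fold changes of the members in the JMJD1C tables were smaller than these. The smallest call is not a bar common to all members, because their errors differ. The median error at these levels was 0.30 to 0.34, against 0.47 to 0.51 for RUNX1 and RUNX1T1 and 0.78 to 0.80 for TCF12. A 2-fold change, 1 on the log2 scale, lay outside the 95% interval of 5 members with each hairpin, namely CBFB, TCF3, LYL1, LMO2 and LDB1. For RUNX1, RUNX1T1 and TCF12 a change of that size lay inside at least 1 of the intervals. The p-values as deposited in both JMJD1C tables correspond to normal deviates 1.42 times as large, at the median, as the deposited statistic. With errors scaled to the deposited p, the interval lay within 1 of 0 for 8 members with shRNA63 and for 6 with shRNA95, RUNX1T1 and TCF12 being the exceptions.

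**Figure D3:**
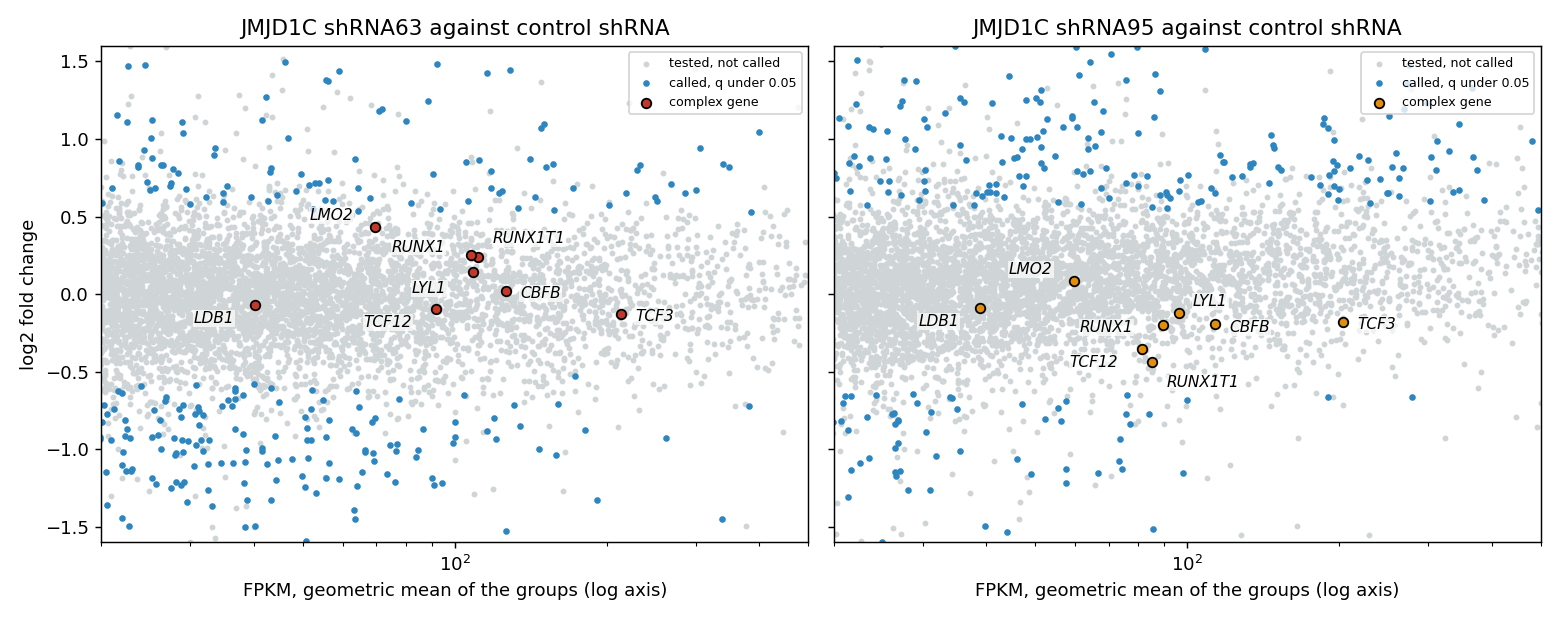
Each point is a tested gene, with the geometric mean of the FPKM of both groups (log axis, 20 to 500 FPKM shown) against the authors' log2 fold change (1.6 in either direction shown), for shRNA63 (left) and shRNA95 (right). Blue genes were called at q under 0.05; the outlined members lie in the band of uncalled genes, LMO2 with shRNA63 nearest to its upper edge at 0.43.

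Between the hairpins the 95% interval of the difference included 0 for all 8 members, also with each kind of narrower error taken alone. The difference of the 2 log2 fold changes, shRNA63 minus shRNA95, was 0.68 for RUNX1T1 (error 0.68, interval -0.66 to 2.01) and 0.45 for RUNX1 (error 0.69, interval -0.90 to 1.80). It was 0.35 for LMO2 (error 0.37, interval -0.37 to 1.07), 0.27 for LYL1 (error 0.37), 0.26 for TCF12 (error 1.12) and 0.22 for CBFB (error 0.52). TCF3 at 0.05 (error 0.39) and LDB1 at 0.02 (error 0.46) were closest to 0. After Benjamini-Hochberg adjustment over 17267 genes tested with both hairpins, 0 of 8 members passed, and the adjusted p was 0.99996 for each. Over all genes 0.84% passed that test. At an unadjusted p under 0.05 the share was 4.81% of all genes, and 0 of 8 members. Among genes at 20 FPKM or more in both control columns, the smallest difference that passed was 1.31 in size, so smaller ones were not detectable by this test at these levels. Each of the 8 differences was above 0, with a median of 0.26, where 47.5% of all genes were above 0 and the median of all was -0.03. Among the 5801 genes with at least 20 FPKM in both control columns, 37.6% were above 0. This common direction was known from earlier results on an overlapping gene list and is given as a description. The p-values rest on group values and a normal approximation, and the shared controls make the errors too wide. With the control part of the errors removed, the differences of RUNX1T1, LMO2 and LYL1 exceeded their errors, and with errors scaled to the deposited p those of RUNX1T1, LMO2 and RUNX1 did. Both changes of the errors together were not run, so whether the intervals would then include 0 was not tested.

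**Figure D4:**
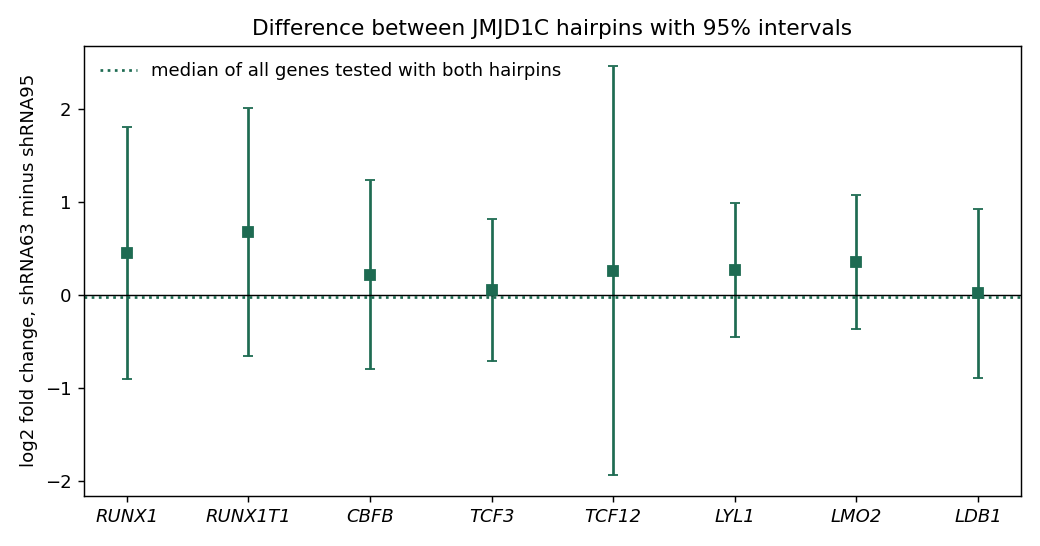
Squares are the differences between the log2 fold changes of the hairpins (shRNA63 minus shRNA95, y axis) for the 8 members, with 95% intervals. All lie above 0 and above the dotted median of all genes at -0.03, and every interval includes 0, from LDB1 at 0.02 to RUNX1T1 at 0.68.

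In the AML1-ETO comparison the fusion partners RUNX1T1 and RUNX1 and their cofactor CBFB had the lowest log2 fold changes of the members in the authors' deposited table, and none was called. The labels do not say which part of the transcript the AML1-ETO hairpin matches. For RUNX1T1 the authors' deposited table gave a log2 fold change of -1.04 (error 0.87, interval -2.74 to 0.65, q = 0.9996), which is 48.6% of control. The authors' deposited table put RUNX1 at -0.86 (error 0.74, interval -2.31 to 0.59, q = 0.946), which is 55.1% of control. CBFB was at -0.86 too (error 0.57, interval -1.96 to 0.25, q = 0.968) in the authors' deposited table. These 3 genes lay at percentiles 7.39, 9.81 and 9.88 of all fold changes in the authors' deposited table. LMO2 and LYL1 stood above their control, with 0.55 (error 0.45) and 0.53 (error 0.47), at percentiles 79.9 and 79.2 in the authors' deposited table. With TCF3, TCF12 and LDB1 between them, 6 of 8 members were below 0, where 50.5% of all tested genes were. Those 3 lay at -0.26 (error 0.62), -0.26 (error 0.84) and -0.16 (error 0.57) in the authors' deposited table.

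This table compares 1 library with 1 other, so its test has no replicate check and describes those libraries. Of all 22406 tested genes 0.411% were called and 6.67% had an unadjusted p under 0.05. The members numbered 0 of 8 by either measure, with the smallest p at 0.102 for RUNX1 in the authors' deposited table. A 2-fold loss lay inside the intervals of 6 members. The intervals of LYL1 and LMO2 held a 2-fold gain but not a 2-fold loss. Changes near 2-fold could go without a call at such errors. Examples are KIT at -0.96 (error 0.47) and ELANE at 1.03 (error 0.43), neither called in the authors' deposited table. The FPKM of these libraries belong to another series and were not used here.

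Several genes related to the members by family or by known partnership were called. Of 28 related genes 21 were tested with shRNA63, with 1 called higher and 2 lower, against 2.29% and 2.83% of all tested genes. With shRNA95 20 were tested, with 1 called higher and 4 lower, against 2.59% and 1.82%. With AML1-ETO shRNA 24 were tested and 1 was called higher, against 0.223% of all tested genes, and 0 were called lower, against 0.187%. The lists were chosen with earlier calls for SPI1, ERG and GATA2 in these data known. Those genes are among the calls counted here, so the counts are a description and cannot be read as an excess over all genes. Whether the related genes differ from the members in this was not tested.

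ID1, whose product binds E proteins and keeps them from DNA, fell with both hairpins. It stood at 10.0 FPKM with shRNA63 against 16.9 FPKM in its control, and at 10.8 FPKM with shRNA95 against 16.4 FPKM in its control. The log2 fold changes in the authors' deposited tables were -0.75 (error 0.27, q = 0.00391) and -0.60 (error 0.28, q = 0.0439). In the AML1-ETO comparison it was at -0.92 (error 0.79) without a call in the authors' deposited table. Of the other members of that list, ID2 and ID3 stood at 3 FPKM or less and TCF4 under 1 FPKM in all groups of the JMJD1C tables, none was called in any table, and ID4 was listed at 0 in the JMJD1C tables. ID2, another inhibitor of E proteins, lay above its control in each comparison, at 0.78 (p = 0.0595) with shRNA63, 1.13 (p = 0.0094) with shRNA95 and 1.92 (p = 0.0225) with AML1-ETO shRNA in the authors' deposited tables. ID3 lay below its control in each, at -0.64 (p = 0.0249) with shRNA63, -0.90 (p = 0.00735) with shRNA95 and -3.84 (p = 0.00175) with AML1-ETO shRNA in the authors' deposited tables, these p-values being unadjusted.

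SSBP3, a single-stranded DNA-binding protein that binds LDB1 and protects it from degradation, fell in the libraries labelled shRNA95. SSBP3 was at 64.5 FPKM against 110.0 FPKM in the control, and the authors' deposited table gave -0.77 on the log2 scale (error 0.22, q = 0.00401). With shRNA63 it stood at 84.7 FPKM against 113 FPKM in its control, at -0.42 (error 0.21, q = 0.266) in the authors' deposited table, without a call. Its difference between the hairpins was 0.35 (error 0.37, interval -0.37 to 1.07), with an adjusted p of 0.99996 from the test across all genes. LDB1 itself was at 94.1% of control in the same shRNA95 libraries. SSBP3 had the highest control level of the LIM list, whose other tested genes were not called.

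Among blood factors that share sites with the complex, SPI1 rose with both JMJD1C hairpins and was also called higher between the single libraries of the AML1-ETO table, and ERG fell with both JMJD1C hairpins. SPI1, which encodes PU.1, stood at 69.2 FPKM with shRNA63 against 42.0 FPKM in its control, and at 126 FPKM with shRNA95 against 40.8 FPKM in its control. Its log2 fold change was 0.72 (error 0.25), 1.63 (error 0.26) and 2.17 (error 0.52) with shRNA63, shRNA95 and AML1-ETO shRNA in the authors' deposited tables. The q in the authors' deposited tables was 0.00214, 0.00216 and 0.0311 in that order, and the last has no replicate check. ERG, an ETS factor of stem cells, was at -1.06 (error 0.29, q = 0.00214) with shRNA63 and -0.73 (error 0.30, q = 0.0378) with shRNA95 in the authors' deposited tables. GATA2, which can bind DNA beside LMO2 complexes, stood at 19.3 FPKM with shRNA95 against 30.3 FPKM in its control, called lower with q = 0.0211 in the authors' deposited table. With shRNA63 it was at -0.54 (error 0.27, q = 0.0841) in the authors' deposited table. Between the single libraries of the AML1-ETO table ERG was at -0.71 (error 0.59) and GATA2 at -1.55 (error 0.62), neither called. In the other families no gene was called in any table. TAL1, which can take the place of LYL1 beside LMO2, stood at 17.5 FPKM with shRNA63 against 26.9 FPKM in its control, and at 17.9 FPKM with shRNA95 against 26.1 FPKM in its control. RUNX3 and CBFA2T3, the relatives of RUNX1 and RUNX1T1 with the highest control levels, stood at 12.6 to 18.8 FPKM and 5.42 to 7.41 FPKM over the groups, well under the levels of RUNX1 and RUNX1T1. The lists were chosen with earlier calls for SPI1, ERG and GATA2 known, so those calls are a description. Of the myeloblast markers, ELANE, CD33 and KIT were called with shRNA63 alone, and CD34 with shRNA95 and AML1-ETO shRNA. For CD33 and KIT the interval of the difference between the hairpins included 0. The part of these markers in the changes of the blood factors was not tested.

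**Figure D5:**
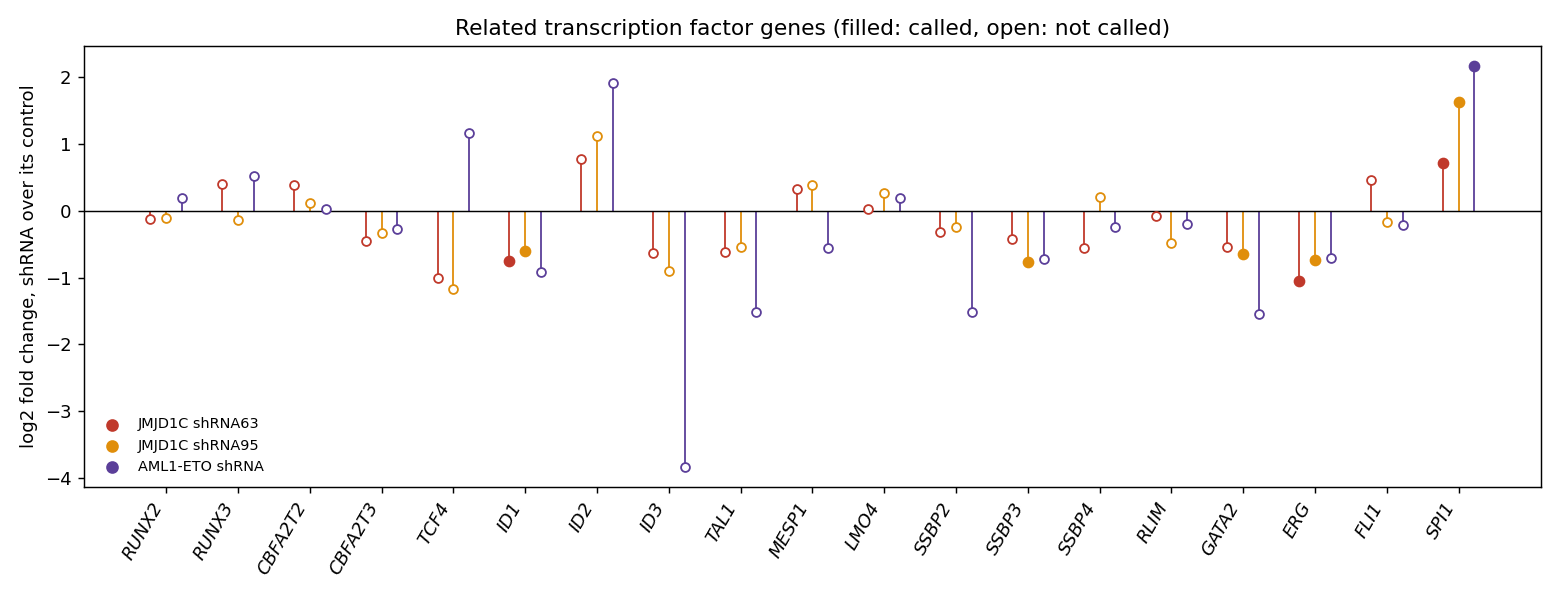
Lines and circles give the authors' log2 fold changes (y axis, shRNA over its control) of the 19 related genes tested in all 3 tables, with JMJD1C shRNA63, JMJD1C shRNA95 and AML1-ETO shRNA from left to right at each gene. Filled circles were called at q under 0.05: SPI1 higher in 3 tables, ID1 and ERG lower with both JMJD1C hairpins, SSBP3 and GATA2 lower with shRNA95.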

How the data were processed

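RNA was sequenced from 6 libraries of Kasumi-1 cells, 2 per group. The submitters' processing notes name TopHat2 2.0.8b, Cuffdiff 2.1.1 and hg19, with no role or order. Per the file headers, the deposited tables hold, per gene, FPKM scaled by the authors within each table (1 value per group), a log2 fold change, a test statistic (a score), a p-value and a q-value, all computed by the authors. Control FPKM in the shRNA63 table were 1.03 times those of the shRNA95 table at the median, so levels were compared within a table. Tables were joined to groups by column names. The AML1-ETO table also has per-library FPKM from another series; these 2 columns were not used.

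A gene was called at a deposited q under 0.05. Errors are the log2 fold change over the statistic, and 95% intervals assume a normal distribution. The hairpin difference used a normal test with errors raised to at least their 10th percentile in each table (this set those of LYL1, LMO2, SSBP3 and ELANE). Named were all members, JMJD1C, called related genes and the highest of each related list. Members and lists were chosen with earlier results of these data known. Depth per library is unknown. Python 3.11.15, pandas 2.3.3 and scipy 1.17.1 were used. Some markers of other lineages are not reported here.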

Additional observations from a re-analysis of the deposited data

Results flagged for a closer look

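ELANE, the gene of neutrophil elastase and one of the myeloblast markers, differed between the hairpins in the normal test over all genes with Benjamini-Hochberg adjustment. Its difference of log2 fold changes, shRNA63 minus shRNA95, was 1.69 (error 0.37, 95% interval 0.97 to 2.41). Its adjusted p in that test was 0.00124. The test is a normal approximation on group values, since no value per library is in the tables. In the authors' deposited tables ELANE lay at 1.71 with shRNA63 and at 0.02 with shRNA95.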

How the results depend on the processing

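No paired analysis was possible because the tables hold 1 value per group, and for the same reason leaving out single libraries could not be run. At an unadjusted p under 0.05 in place of q the count of members called with shRNA63 went to 1 (LMO2); at q under 0.01 the related genes called were 2 with shRNA95 in place of 5, and 0 in place of 1 in the AML1-ETO table. The cause was not tested, beyond the stricter or looser threshold itself. With errors scaled to the deposited p, the interval of LMO2 with shRNA63 no longer included 0 (0.08 to 0.79), while its q stayed at 0.192. No member passed the hairpin difference with errors scaled to p, with the control part of the errors removed, without a floor on errors or with a filter of 1 FPKM, where the lowest adjusted p was 0.996, 0.874, 0.99996 and 0.99996. Each setting was applied alone, and combinations were not run. Centring on the median of all genes turned the sign of no member in the 3 comparisons or the hairpin difference, and neither did pseudocounts of 1 and 0.1 in the 2 JMJD1C comparisons, where alone they were run. The depth of each library is unknown, so no limit set by depth is given.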
